A study of Canis lupus familiaris with 51 samples.

Results

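The 9 genes described here are HPRT1, TMBIM4, GAPDH, ACTB, B2M, TBP, YWHAZ, GUSB and RPS19, which are used, or commonly proposed, as reference genes to normalize qPCR. They were found by name among the 35619 gene names of the array, and 25 of its 43603 probes that are not controls were assigned to them. The samples were 51 canine cutaneous mast cell tumors (MCTs), 1 per array, each an aliquot from the center of the mass, taken during surgery for diagnosis or treatment and kept in RNAlater. All 51 carry the same tissue label, mast cell tumor (MCT), and no normal skin was included. The labels name 19 male and 30 female dogs, give no sex for the other 2, and give ages from 3 to 14 years for 49 dogs. The largest breed groups were 14 Crossbred, 9 Boxer and 9 Labrador Retriever dogs. The differentiated and undifferentiated classes of the study are not part of the sample labels and were not used, so that a continuous proliferation score takes their place below.

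In qPCR the amount of a target is divided by that of reference genes measured in the same sample, so that unequal RNA input cancels. This works only as far as the reference genes themselves stay level between samples. The genes considered here serve unrelated cell functions: HPRT1 salvages purines, GAPDH is a glycolytic enzyme, ACTB is cytoplasmic actin, B2M is the light chain of MHC class I, TBP binds the TATA box, YWHAZ is a 14-3-3 adaptor protein, GUSB is a lysosomal glucuronidase, RPS19 is a ribosomal protein and TMBIM4 belongs to a family of membrane proteins that limit cell death. The internal control genes (ICGs) of the qPCR in this study were HPRT1, TMBIM4 and ATP5B, a subunit of mitochondrial ATP synthase, which is no member but is given for comparison.

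The primers of these ICGs are shown because they bound the stretch of each transcript that the qPCR amplified.
HPRT1 forward: tgctcgagatgtgatgaagg
HPRT1 reverse: tcccctgttgactggtcatt
TMBIM4 forward: tctacaatctaagagagatttcagcaa
TMBIM4 reverse: ttcctgacaagcacaaaatcc
ATP5B forward: tctgaaggagaccatcaaagg
ATP5B reverse: agaaggcctgttctggaagat
None of the 6 primers, on either strand, lies inside an array probe of its gene. Whether a probe lies between the primers or overlaps one in part was not tested.

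The 2 HPRT1 probes lie on chrX, the brighter of them at chrX:108214803-108214862. TMBIM4 has a single probe, made from a heart cDNA clone and placed at chr10:11644835-11657151, a span of 12317 bases for a probe of 60. GUSB also has a single probe, at chr6:3741515-3741574 on the minus strand. The brightest probe for ACTB, at chr6:15435004-15435063, carries the gene name ACTA1 in the files although its description is beta-actin (ACTB), while the probe named ACTB lies on chr3 and is described by LOC610787, which RefSeq (UU_Cfam_GSD_1.0) lists as a pseudogene. No probe carries the name RPS19, and that gene was read from the probe of LOC481552 at chr11:42071585-42071644, described as similar to ribosomal protein S19. The genome build of these coordinates is not given in the sources used here, and no annotation of it was used to place probes in exons or introns.

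GAPDH was covered by 12 probes. The brightest one is set here beside probes of 2 GAPDH-like loci on other chromosomes, with each base that differs from it in capitals, because near-identical copies can share its signal.
GAPDH, chr27:41496887-41497055: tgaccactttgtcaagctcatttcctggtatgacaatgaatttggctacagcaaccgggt
LOC610338, chr3:62018291-62018347: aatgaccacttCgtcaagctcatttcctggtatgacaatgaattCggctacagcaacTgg
LOC488591, chr38:12888316-12888375: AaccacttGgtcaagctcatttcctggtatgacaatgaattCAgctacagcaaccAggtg
The LOC610338 probe differs at 3 of 58 aligned bases and the LOC488591 probe at 5 of 59. Over the 51 tumors their levels followed the GAPDH probe with Pearson r = 0.97 and 0.95, as a description over arrays that share their normalization. Signal from GAPDH and from such near copies therefore cannot be told apart on this array.

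Of the spots on each array, 59.4% to 74.8% were well above background, and 22793 probes were so on all 51 arrays. Of 14 mast cell markers, 8 had a probe by name, and 7 of them were well above background in every tumor, KIT, FCER1A and CMA1 among them, while CTSG was so in 36. The tumor LM0 had the lowest correlation with the median profile of the arrays, r = 0.94, and the highest proliferation score. On its array 62.2% of spots were well above background, rank 4 from the lowest of 51. The mean log2 level of its spike-in controls, 11.95, was exceeded only by that of T12, 12.01. The part of array quality in the levels of LM0 was not tested. LM0 also held the lowest TMBIM4 and B2M levels and the highest HPRT1 level, so results that rest on it are given without it.

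RPS19 was the least variable of the 9 genes and GUSB and TMBIM4 were the most variable. Variation is given as the SD over the 51 tumors of the log2 level, after quantile normalization, of the brightest probe of each gene. The RPS19 level lay between 16.78 and 17.25 with a median of 17.01. Its SD was 0.131 ± 0.009 (jackknife SE, n = 51), and all 51 tumors stayed within 0.25 of the median. Only 0.29% of the probes well above background on all arrays had a smaller SD.

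B2M ranged from 16.59 to 18.01 around a median of 17.74, with an SD of 0.208 ± 0.073. The low value belonged to LM0 alone, the next tumor being at 17.25, and without LM0 the SD of B2M fell to 0.136. The other B2M probes, at mean levels of 17.63 and 17.41, had SDs of 0.350 and 0.237. Of the probes well above background on all arrays, 35.6% varied less than the first of these and 2.9% less than the brightest one. The low spread of B2M thus depended on the probe. Both RPS19 and B2M are among the brightest probes, with only 0.316% and 0.135% of probes above them. Scaling each array to its 75th percentile, which does not force the bright end of all arrays to one distribution, gave SDs of 0.207 for RPS19 and 0.291 for B2M.

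ACTB, HPRT1, TBP and YWHAZ formed a middle range. ACTB lay between 16.92 and 18.08 with a median of 17.56 and an SD of 0.260 ± 0.026. HPRT1 lay between 10.41 in T81 and 11.73 in LM0, with a median of 11.09 and an SD of 0.265 ± 0.030, and 47 of 51 tumors were within 0.5 of its median. TBP, at 6.97 to 8.29 with a median of 7.34, had an SD of 0.278 ± 0.038. YWHAZ, at 12.27 to 13.48 with a median of 12.75, had an SD of 0.285 ± 0.026. Neighbors in this order did not differ beyond their errors, and between 11.2% and 17.3% of the probes well above background on all arrays had a smaller one. ATP5B would fall beside them, with an SD of 0.287 ± 0.029. The other probes assigned to ACTB, HPRT1, YWHAZ and ATP5B varied more, with SDs of 0.332, 0.298, 0.334 and 0.370.

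GAPDH ranged from 15.59 to 17.45 around a median of 16.18. Its SD was 0.368 ± 0.049, beside 0.285 ± 0.026 for YWHAZ, and 40.4% of the detected probes varied less. The difference from YWHAZ was larger than either error, but it was not tested. The median SD of the detected probes was 0.406, and 7 of the 9 genes lay below it. The highest GAPDH level, in T57, was 3.64 times the lowest, in T100.

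TMBIM4 ranged from 4.30 in LM0 to 7.17 in T90, with a median of 5.58. Its SD was 0.584 ± 0.060, and 76.1% of the detected probes varied less. The probe was dim: it was well above background in 45 tumors and not in the other 6, whose levels ran from 4.30 to 5.43. Of these, T6, T12, T91 and LM0 had the arrays with the lowest shares of spots well above background, 59.4%, 60.6%, 60.7% and 62.2%. The arrays of T9 and T47 had 66.8%. The slope of TMBIM4 on that share, 0.042, was not called by limma (adjusted p = 0.27). The part of array quality in its SD was not tested. A normexp background correction with an offset of 50, which compresses dim signals, brought the SD of TMBIM4 to 0.193 and its rank among the 9 genes from 8 to 3. The SD of TMBIM4 thus depended on how the background was treated.

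GUSB varied most, from 9.44 in T9 to 12.34 in T49, with a median of 10.65 and an SD of 0.600 ± 0.070. Unlike TMBIM4, its probe was well above background on all arrays, and its SD stayed between 0.389 and 0.725 under every measure and scaling tried. No tumor lay between 10.07 and 10.37, with 13 tumors below that gap and 38 above it.

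**Figure D1:**
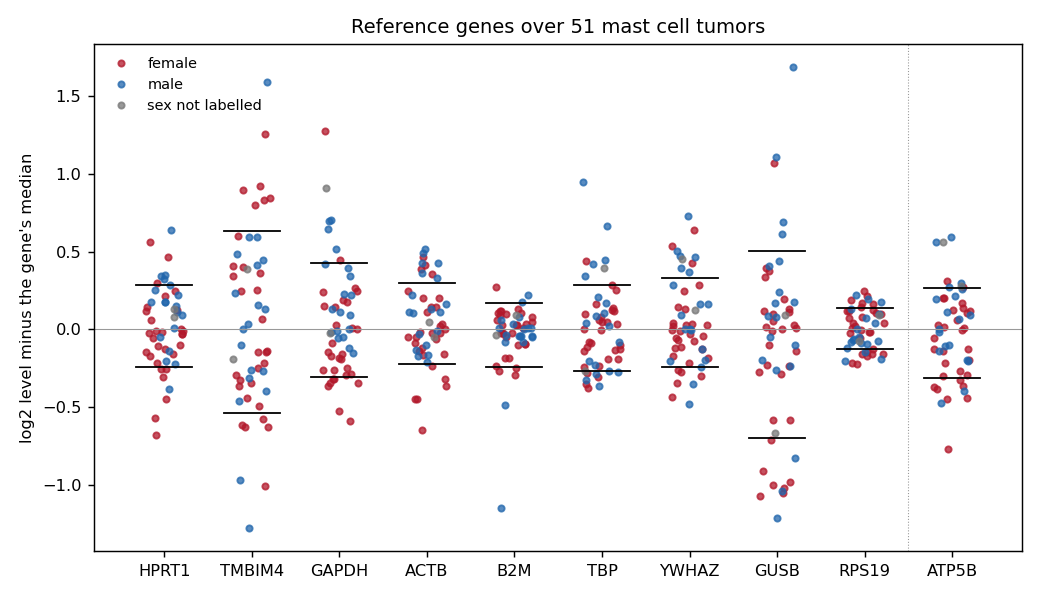
Deviation of each tumor's log2 level from the median of the gene (vertical axis) for the 9 reference genes and ATP5B, with 1 point per tumor colored by labelled sex and lines at the mean plus and minus 1 SD. RPS19 stayed within 0.25 of its median in all 51 tumors, while GUSB spanned 2.90 log2 units, and TMBIM4, not well above background in 6 tumors, spread widely too.

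**Figure D2:**
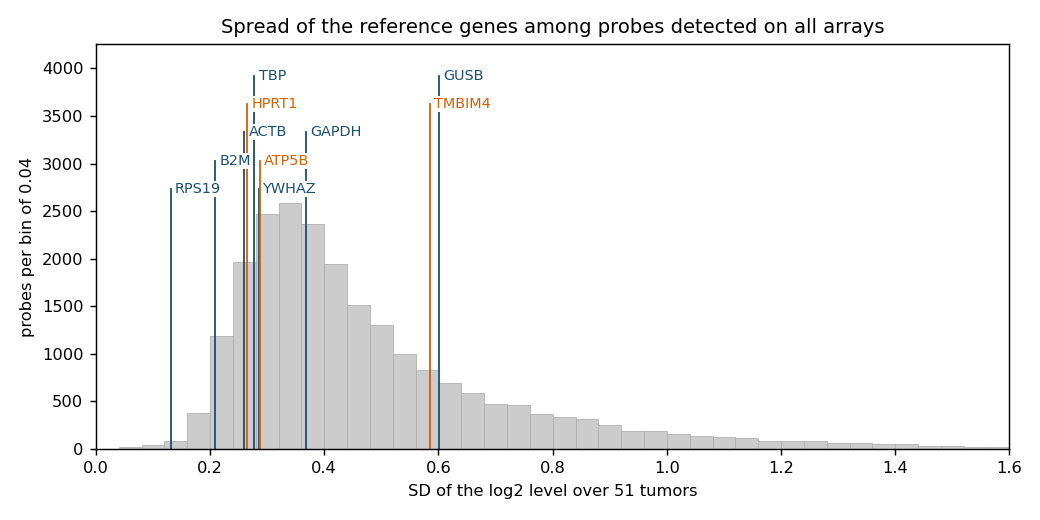
Number of probes (vertical axis) by SD of the log2 level over 51 tumors (horizontal axis, cropped at the right) for the 22793 probes well above background on all arrays, with a line at the SD of each reference gene; the control genes of the study are in orange. The brightest probes of RPS19 and B2M lie at the left edge of the distribution, and those of TMBIM4 and GUSB lie to the right of its bulk.

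An SD after normalization depends on the normalization. The log2 ratio of a pair of genes on the same array does not change with a scale factor of that array. The ratios below were taken between the brightest probes after quantile normalization. That is not a single scale factor, so the ratios still depend on it. Among the 36 pairs of members, the ratio of B2M to RPS19 had the smallest SD over tumors, 0.230, followed by HPRT1 to ACTB with 0.261 and HPRT1 to TBP with 0.277. The least stable ratio was TMBIM4 to GUSB, with an SD of 0.725. The ratio of HPRT1 to TMBIM4, both controls of the study, ranked 31 of 36 with an SD of 0.649. With the normexp correction its SD was 0.324, rank 16, and the smallest SD was that of TBP to RPS19, 0.221.

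The mean of the 8 ratio SDs of a gene is the geNorm stability value M, which is lower for a more stable gene. M was 0.375 ± 0.022 (jackknife SE, n = 51) for ACTB, 0.388 ± 0.031 for HPRT1 and 0.394 ± 0.026 for RPS19, which did not differ beyond their errors. B2M, TBP, YWHAZ and GAPDH followed at 0.409, 0.412, 0.424 and 0.448. TMBIM4 and GUSB had the highest values, 0.629 ± 0.056 and 0.635 ± 0.065. When the least stable gene was dropped step by step, GUSB went first, then TMBIM4, GAPDH, B2M, YWHAZ, RPS19 and TBP, and HPRT1 and ACTB were left. Without LM0, B2M had the lowest M, 0.361, beside 0.364 for ACTB, 0.365 for HPRT1 and 0.382 for RPS19, and B2M and RPS19 were left at the end. With the normexp correction the M of TMBIM4 was 0.324, rank 3, and that of GUSB stayed highest at 0.558, and HPRT1 and TBP were left. The pair that is left thus depended on LM0 and on the background treatment, while GUSB was dropped first in these 3 settings, the only ones run step by step. With 75th percentile scaling, without normalization and with spike-in scaling, TMBIM4 had the highest M, 0.666 against 0.655 for GUSB. These 3 settings differ only by a scale factor of each array, so they give the same M and count as 1 result. B2M then ranked 6, with an M of 0.442. With the mean over all probes of a gene, TMBIM4 was also highest, 0.632 against 0.624 for GUSB.

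Averaging genes did not always reduce the spread. The mean log2 level of HPRT1, TMBIM4 and ATP5B had an SD of 0.206 and ran from 0.35 below to 0.59 above its median. HPRT1 and ATP5B alone, without TMBIM4, gave an SD of 0.186, less than either gene alone. GAPDH with ACTB gave 0.280, above ACTB alone, and HPRT1 with TMBIM4 gave 0.317, above HPRT1 alone. TMBIM4 enters these means by its dim array probe, whose SD depended on the background treatment. The means were not computed with the normexp correction, and they do not measure the qPCR assay of TMBIM4.

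**Figure D3:**
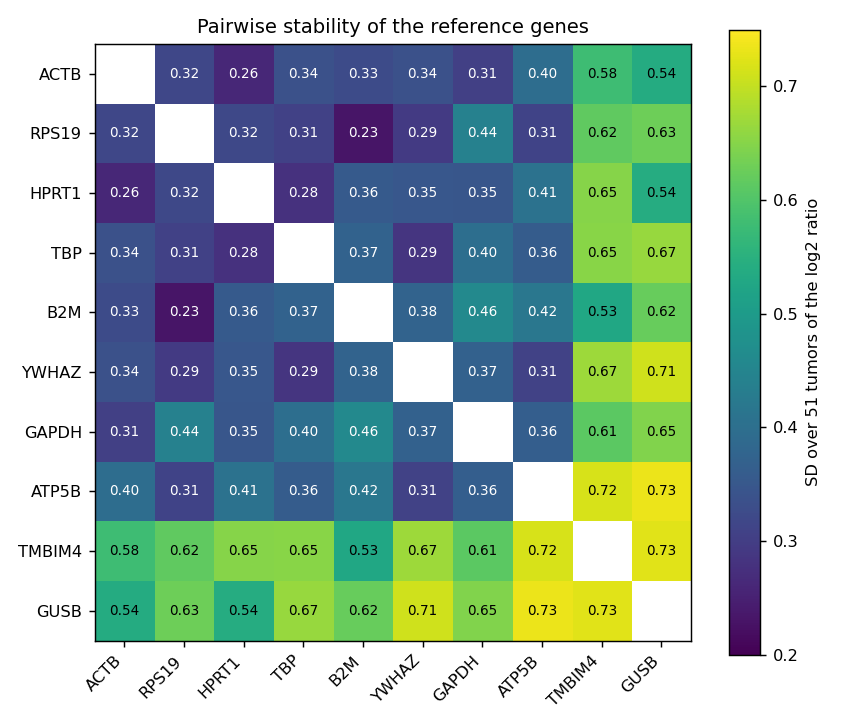
SD over 51 tumors of the log2 ratio of each pair of genes on the same array (color and printed value), with the genes ordered by their mean over all pairs. The rows of TMBIM4 and GUSB hold all values above 0.5, and the smallest value, 0.23, is B2M to RPS19.

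The next question was whether the levels moved with tumor proliferation or cell content. A score was computed for each tumor as the mean centered log2 level of 20 mitotic and cell cycle genes, and scores for mast cells, collagen stroma, T cells and epidermis were made likewise from 8, 14, 7 and 9 genes. Of these genes, 11 of the 20 for proliferation, 7 of 8 for mast cells, 14 of 14 for collagen, 3 of 7 for T cells and 1 of 9 for epidermis were well above background on all arrays. In bulk samples, more cells of a type and more RNA per cell cannot be told apart.

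GAPDH and YWHAZ rose with proliferation. GAPDH rose by 0.28 ± 0.04 (SE, limma, n = 51) on the log2 scale per unit of score, with an adjusted p of 3.5e-06, which is 1.08 over the whole span of the score. The other 8 bright probes assigned to GAPDH, near copies included, had slopes from 0.24 to 0.27 and were all called. The other 3, named ENSCAFT00000014261, LOC610391 and LOC488842, were dim, and their slopes of -0.032, -0.020 and -0.0015 were not called. YWHAZ rose by 0.20 ± 0.04 per unit (adjusted p = 0.00013), and its other probe by 0.23. Leaving out LM0 gave 0.23 for YWHAZ.

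In all, 4 of the 9 genes passed at an adjusted p under 0.05, where 14.9% of all probes did. TBP rose by 0.12 ± 0.04 per unit (adjusted p = 0.033) and B2M fell, with a slope of -0.099 ± 0.032 (adjusted p = 0.026). Both calls depended on single tumors. Without LM0 the slope of B2M was -0.036 (adjusted p = 0.44) and that of TBP was 0.11 (adjusted p = 0.093), and without T9 that of TBP was 0.091 (adjusted p = 0.12). With scan session as a block, neither passed (adjusted p = 0.076 for B2M and 0.12 for TBP). With the authors' normalized table the slope of TBP was 0.055 (adjusted p = 0.53), and with all 5 scores in 1 fit it was 0.093 (adjusted p = 0.091). B2M also missed the threshold with 75th percentile scaling, at -0.11 (adjusted p = 0.084). These values are for its brightest probe. Its other probes had slopes of -0.122 (adjusted p = 0.12) and -0.123 (adjusted p = 0.010), and they were not fitted without LM0.

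The 2 study controls among the members did not pass. The slope of HPRT1 was 0.089 ± 0.041 (adjusted p = 0.15), and that of TMBIM4 was -0.011 ± 0.092 (adjusted p = 0.96), with a 95% interval from -0.20 to 0.17. ATP5B, their partner in the qPCR, rose by 0.18 ± 0.04 per unit (adjusted p = 0.00075) by its brightest probe, and its other probe was not tested. The paper reports that the ICGs did not differ significantly by qPCR between differentiated and undifferentiated MCTs. That is another measure and another comparison than the array slopes given here. ACTB, with 0.11 ± 0.04, missed the threshold narrowly (adjusted p = 0.053) and passed under 4 of 10 alternatives. The probe on chr3 that carries the name ACTB had a slope of -0.016 (adjusted p = 0.91). RPS19 had the narrowest error, with a slope of -0.007 ± 0.024 (adjusted p = 0.90).

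The counts of partner genes called are to be read against the same 14.9% of all probes, and their median slopes against -0.0045 over all probes. Of the 13 glycolysis genes measured, with a median slope of 0.14, 8 rose with proliferation and 0 fell, from the glucose transporter SLC2A1, with 0.96 per unit (adjusted p = 0.0023), to HK2 with the lowest slope, -0.011 (adjusted p = 0.93). Of the 5 other 14-3-3 genes, 2 rose. Among 13 purine genes beside HPRT1, 4 rose, with PRPS2, a phosphoribosyl pyrophosphate synthetase, at 0.26 (adjusted p = 0.0025), and 2 fell, with the guanine deaminase GDA at -0.75 (adjusted p = 0.00057). Of 21 ribosomal protein genes, with a median of 0.0064, 2 rose and 0 fell, and of 15 lysosomal genes, the group of GUSB, with a median of -0.075, 0 rose and 3 fell, both counts near that share. Of 11 class I presentation genes, 3 rose and 3 fell, from the chaperone CANX at 0.29 (adjusted p = 4.3e-07) to the class I chain DLA-12 at -0.32 (adjusted p = 0.0023).

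GUSB was the member that rose with the mast cell score. Its level rose by 0.57 ± 0.12 per unit of the mast cell score (adjusted p = 0.00021), and it remained past the threshold in all 11 alternatives of this fit. The other 8 genes did not pass, where 27.1% of all probes did. HPRT1, with a slope of 0.15 ± 0.06, missed the threshold (adjusted p = 0.052) and passed in 7 of 10 alternatives, and its other probe had a slope of 0.20 (adjusted p = 0.016). The probes of B2M disagreed: its brightest probe had a slope of 0.11 (adjusted p = 0.082), the others 0.35 (adjusted p = 0.00011) and 0.16 (adjusted p = 0.017). The brightest B2M probe passed without LM0, at 0.10 (adjusted p = 0.015), with 75th percentile scaling (adjusted p = 0.019) and with the normexp correction (adjusted p = 0.044). Of the 15 lysosomal genes, 3 rose and 0 fell with this score, with CTSD, a protease, highest at 0.65 (adjusted p = 0.0010). Of the 11 class I genes 5 rose and 0 fell, with TAPBP, tapasin, at 0.77 (adjusted p = 1.7e-08). The median slope of all probes on this score was 0.058.

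Epidermis content moved with 3 of the 9 genes, where 22.4% of all probes were called. HPRT1 fell by 0.032 ± 0.008 on the log2 scale per unit of the epidermis score (adjusted p = 0.0030), ACTB by 0.029 ± 0.008 (adjusted p = 0.0081) and GUSB by 0.052 ± 0.019 (adjusted p = 0.044). The epidermis score spans 10.7 log2 units, so the change over the whole span was -0.35 for HPRT1, -0.31 for ACTB and -0.55 for GUSB. The score was not spread evenly, and between T56 at -2.80 and T58 at 2.55 lay only T6, T89, T106 and T131. The slopes thus mostly compare tumors of low score with tumors of high score. HPRT1 and ACTB passed in all 11 alternatives, while GUSB did not with the 5 scores in 1 fit (adjusted p = 0.40), without T49 (adjusted p = 0.079) or without LM0 (adjusted p = 0.054). ATP5B rose by 0.031 ± 0.009 per unit (adjusted p = 0.010), opposite in sign to HPRT1. Of 9 actin cytoskeleton genes, 0 rose and 4 fell.

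TBP was the only member called against collagen stroma, with a slope of -0.21 ± 0.05 per unit (adjusted p = 0.0025), where 13.1% of all probes were called. Leaving out the 2 tumors with the most extreme stroma scores gave -0.15 and an adjusted p of 0.052. Of the 11 other genes of TFIID and basal transcription, 0 rose and 5 fell with the stroma score. The T cell score moved with 0 of the 9 genes by limma at an adjusted p under 0.05, where 0.835% of probes were called, and with 1, B2M, at an unadjusted p under 0.05. Its slope was 0.095 ± 0.047 (adjusted p = 0.46). Of the class I genes, 2 rose with the T cell score, the highest being the immunoproteasome subunit PSMB8 at 0.67 (adjusted p = 0.00079).

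**Figure D4:**
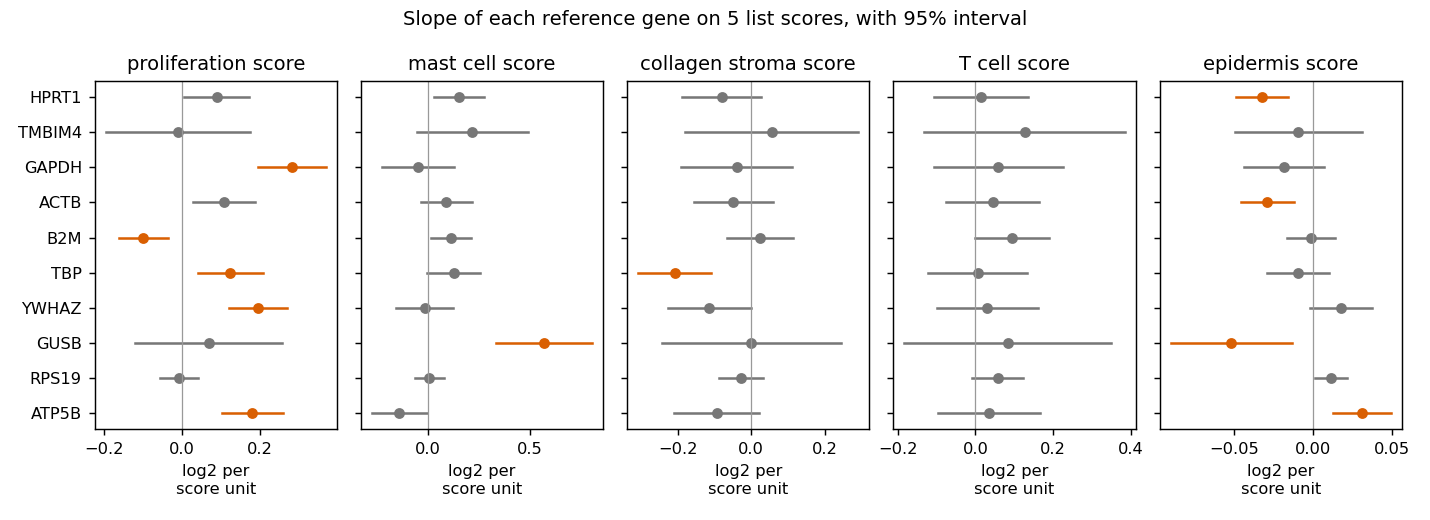
Slope of the log2 level per unit of each of 5 list scores (horizontal axes, which differ between panels) for the 9 reference genes and ATP5B, as the limma estimate with its 95% interval over 51 tumors; orange marks an adjusted p under 0.05 over all probes. GAPDH, YWHAZ and ATP5B lie to the right of 0 for proliferation and GUSB does for the mast cell score.

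**Figure D5:**
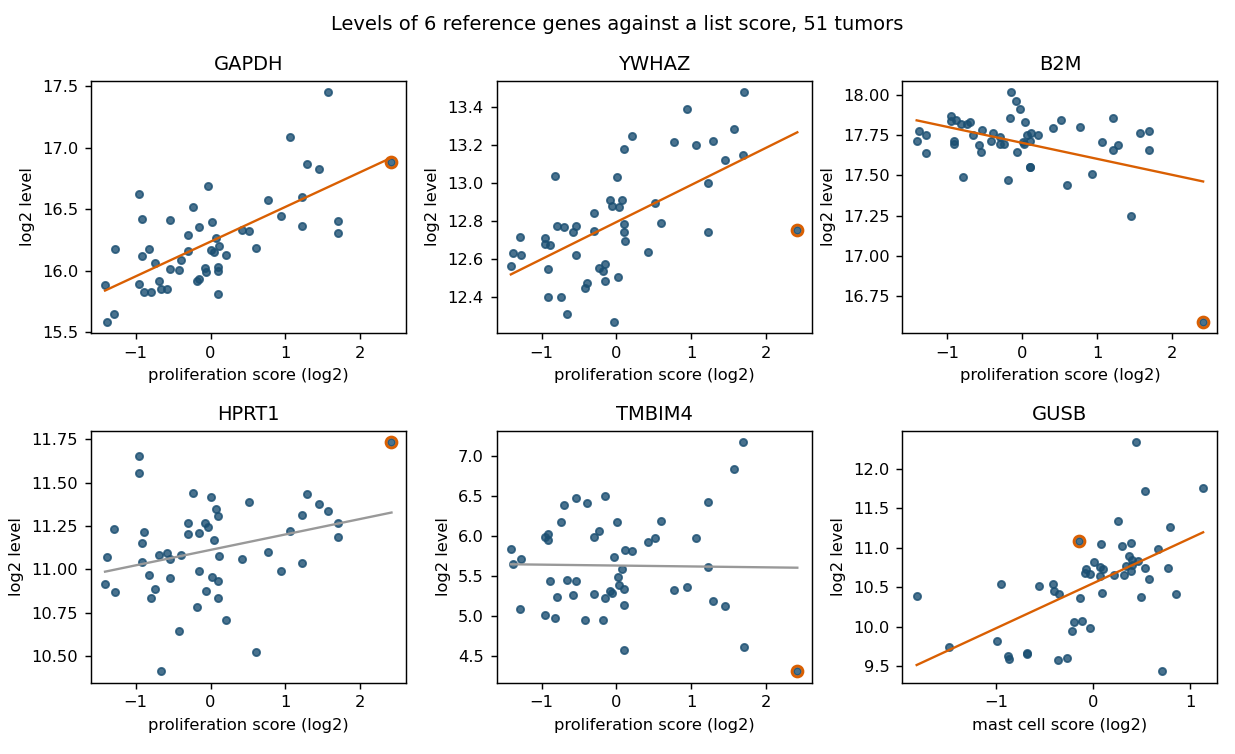
Log2 level of 6 reference genes (vertical axes) against the proliferation score, or for GUSB the mast cell score (horizontal axes), with 1 point per tumor, LM0 circled, and the fitted line in orange where the adjusted p was under 0.05. LM0 alone lies far below the other tumors in the panel of B2M. GAPDH and YWHAZ climb with the score, but LM0, at the highest score, has a YWHAZ level of 12.75, near the median of that gene.

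Sex, breed and age moved none of the 9 genes past the threshold, and few probes of any kind. For sex 0.0619% of probes were called, for breed 0.0803% and for age 0%. HPRT1, which lies on the X chromosome, had a mean level of 11.04 ± 0.27 (SD, n = 30) in female and 11.21 ± 0.24 (SD, n = 19) in male dogs. The ranges of the sexes overlapped widely, and the difference of 0.17 ± 0.08 had an adjusted p of 0.79 by limma. For GAPDH the means were 16.11 ± 0.36 in female and 16.39 ± 0.28 in male dogs, a difference of 0.28 ± 0.10 (adjusted p = 0.79). At an unadjusted p under 0.05 the counts were 3 of 9 for sex and 1 of 9 each for breed and age. TMBIM4 was the one for breed, with means of 5.93 ± 0.63 (SD) in Crossbred, 5.67 ± 0.48 in Labrador Retriever and 5.28 ± 0.49 in Boxer dogs, whose ranges overlapped.

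Technical measures were checked in the same way. Between slides 0 of the 9 genes passed (4 did at an unadjusted p under 0.05), where 16.8% of all probes were called by limma. Of the 16 other probes of these genes, however, 6 were called between slides, with adjusted p of 0.040 for HPRT1, 0.022 and 0.026 for probes named GAPDH, 0.020 for ENSCAFT00000014261, 0.0062 for LOC610391 and 0.011 for the chr3 probe named ACTB. HPRT1 fell by 0.038 ± 0.011 per percentage point of spots well above background on the array (adjusted p = 0.013), and it was the only member called, where 16.1% of all probes were. The tumor with the highest share of such spots, T81, had the lowest HPRT1 level, and without it the adjusted p was 0.052. The part of array quality in the epidermis slope of HPRT1 was not tested.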

How the data were processed

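RNA from 51 MCTs was labeled with a single dye (Cy3) and measured on canine Agilent microarrays, with each array holding 1 tumor. The deposited intensity per spot is the processed signal that the authors obtained with Feature Extraction, background-subtracted and not yet scaled between arrays. The authors' own quantile-normalized intensities, deposited for the whole series, served as an alternative. Here log2 of the processed signal was taken, the 51 arrays were quantile-normalized together, outlier spots were then set to missing, and replicate spots of a probe were averaged. Quantile normalization gives all arrays the same distribution, which narrows the spread of the brightest probes. The tools were R 4.3.3, limma 3.58.1, the R package data.table (version 1.17.8), statmod 1.5.0, matplotlib 3.10.9, numpy 2.4.6 and pandas 2.3.3.

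Probes were assigned by gene name or by the symbol in the description, else by the full gene name; 2 probes of TBP-associated factors and 1 of an algal protein were left out. The brightest probe stood for the gene. Named genes were the members, ATP5B, the 5 genes of lowest SD, the 2 closest genes by Pearson r and the list genes of lowest or highest SD. PRPS2, CANX, DLA-12, TAPBP, PSMB8 and TFRC fall outside this rule and were chosen after their values were seen, as ends of the range of slopes in their list. The mast cell markers KIT, FCER1A, CMA1 and CTSG, named for the check of the tissue, fall outside it too. The members and lists were chosen with earlier results of these data known.

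Each comparison was fitted with limma (lmFit, eBayes) over all 43603 probes with Benjamini-Hochberg adjustment, and called at an adjusted p under 0.05. Each tumor was 1 sample, so the errors include differences between dogs. Alternatives were other normalizations, background correction, kept outlier spots, blocks for slide or scan session, a filter on dim probes (at least 26 arrays), covariates and samples left out. Leaving out LM0 or the most influential tumor was chosen after seeing the data. The precision is limited by the number of arrays. On simulated data with 43603 probes, limma recovered 73 of 100 slopes of 0.5 and 28 of 100 slopes of 0.25 on the proliferation score, with 7 unchanged probes called. For sex it recovered 46 of 100 differences of 0.5 and 71 of 100 of 1, with 5 unchanged probes called. The changed probes were few, independent of each other and drawn at random from all probes. The median SD was 0.509 for all probes and 0.278 for the 9 genes, so these rates do not measure the power for those genes.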

Additional observations from a re-analysis of the deposited data

Results flagged for a closer look

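In 2 of 20 sets of levels within the breed groups of 9 dogs, 1 tumor lay far from the others by Dixon's test, and both sets were of ATP5B. Chance alone gives about 1 in 20. Among the Boxers, T12 had the lowest ATP5B level, 13.57, with the nearest at 14.28, a gap of 0.684 of the range of the group. Among the Labrador Retrievers, T80 had the highest, 14.93, with the nearest at 14.34, a gap of 0.548 of the range. None of the 18 sets of the 9 reference genes held such a tumor.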

How the results depend on the processing

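The median SD of the 9 genes, 0.278, was 0.324 with 75th percentile scaling, 0.251 with normexp correction, 0.370 without normalization, 0.439 with scaling to the spike-in controls and 0.236 without the 2 tumors farthest from the median of each gene. The median M, 0.412, was 0.336 with normexp correction. It was 0.441 with 75th percentile scaling, without normalization and with spike-in scaling, which give the same M because only scale factors of arrays differ. RPS19 ranked 1 or 2 by SD and GUSB 8 or 9 in each setting tried, while TMBIM4 ranked between 3 and 9. Of the 9 genes, 4 were called against proliferation, but 2 with scan session as a block, 2 at an adjusted p under 0.01, 2 without the 2 tumors with the most extreme scores and 2 without LM0. For the mast cell score, 1 was called, but 3 with 75th percentile scaling, 3 with normexp correction and 3 without LM0, and 2 with slide as a random block, with scan session as a block, with the filter on dim probes and without the 2 most extreme tumors. For collagen stroma, 1 was called but 0 without the 2 most extreme tumors. For detection, 1 was called but 2 with the authors' table and 0 at an adjusted p under 0.01. The cause was not tested. The counts for sex, breed, age and T cells stayed at 0 in all alternatives run, and that for epidermis within 1.5 times. No called slope changed sign. Among 712 values called neither in the main setting nor in the alternative, 58 changed sign. No paired analysis was possible because the 51 tumors form 1 group.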

Other observations

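The 5 named genes with the lowest SD among the 7249 symbols with a probe well above background on all arrays were RHAG, RPL22L1, RPL3L, IVD and RHOG, with SDs of 0.056, 0.062, 0.080, 0.080 and 0.098. All 5 had mean levels between 17.88 and 18.35, near the bright end of the arrays, where quantile normalization leaves little spread. RHAG is known as a red cell membrane protein and RPL3L as a muscle ribosomal protein, and whether these probes read the genes they are named for was not tested.

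Of 20 other genes used as references, 17 had a probe by name, and 16 of them were well above background on all arrays. Their SDs ran from 0.130 for RPLP0, a ribosomal stalk protein, to 0.720 for ALAS1, the first enzyme of heme synthesis, with a median of 0.330. With proliferation, where 14.9% of all probes were called, 6 of the 17 rose and 0 fell, the steepest being the transferrin receptor TFRC at 0.38 per unit of score (adjusted p = 7.1e-06, limma). With the mast cell score ALAS1 had a slope of -0.83 (adjusted p = 1.5e-06). The 21 ribosomal protein genes had a median SD of 0.178, against 0.442 for the 13 glycolysis genes and 0.444 for the 15 lysosomal genes.

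As a description over 51 tumors, the genes closest to each member in pattern were SS18L2 and CAPZA1 for HPRT1 (Pearson r = 0.82 and 0.77), ENO1, another glycolytic enzyme, and FEM1C for GAPDH (0.80 and 0.79), and UBE2N and EIF4A1 for YWHAZ (0.81 and 0.74). They were CLPTM1L and SHKBP1 for ACTB (0.77 and 0.75), MCTP1 and VPS41 for B2M (0.74 and 0.73), TUBGCP3 and KHDRBS1 for TBP (0.76 and 0.76), and VPS18 and G6PC3 for GUSB (0.79 and 0.76). The highest values were lower for TMBIM4, with ZFP91 and THRAP3 (0.67 and 0.58), and for RPS19, with PPM1J and SMAD2 (0.63 and 0.60). All arrays share the normalization and the tumors share differences in cell content, whose part in these values was not tested.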
